A study of Mus musculus with 2 samples.

Results

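The genes described here are those whose mouse symbol is Zfp followed by digits alone, a naming class for zinc finger proteins, compared between 1 line of Lsh-/- mouse embryonic fibroblasts (MEF) and 1 line of Lsh+/+ MEF. The gene table held 372 such symbols, of which 289 were measured. The 166 members were selected on their array values: the brighter of a gene's 2 log2 values had to reach the middle value of its array, 3.88 for Lsh-/- or 3.86 for Lsh+/+. These 166 stood among 9168 genes kept by the same rule. This middle value is called the dimness limit below, and it is not a detection limit. A member that passed through its Lsh-/- value alone had to be higher there.

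Each genotype was measured on 1 Affymetrix mouse genome 430 2.0 array of total RNA from cells grown in DMEM with fetal bovine serum, with no treatment named. Lsh, the product of Hells, is a chromatin remodelling protein of the SNF2 family that cells need for normal DNA methylation. With 1 array per genotype there was no spread within a genotype and no test, so every difference below compares 2 arrays and not the genotypes at large. Whether the Lsh-/- line lacks Lsh in full, how many embryos stand behind each line, and their age are not given in the sources used here.

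Most mammalian zinc finger genes of this class encode chains of C2H2 fingers, each of which reads a few bases of DNA. Many carry a KRAB domain, which recruits the corepressor Trim28 and through it the H3K9 methyltransferase Setdb1, and such proteins silence retroelements and hold DNA methylation at imprinted regions. KRAB zinc finger genes arose by tandem duplication, lie in clusters on a few chromosomes, and are often near-identical to their neighbours. Other genes named Zfp have no KRAB domain and work in RNA decay, ribosome quality control or cell division.

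The promoter windows of 7 members show the range of sequence at these genes. The first 4 are the genes farthest apart upward on the arrays, Zfp53 lies in the same chromosome 17 cluster as Zfp229 and Zfp677 and differed little, Zfp317 is a higher gene with a CpG-rich window, and Zfp938 was the gene farthest apart downward. Each window runs from 250 bases before to 50 bases after a gene start of RefSeq on build GRCm38.p6, 5′ to 3′, and CpG dinucleotides, the sites of DNA methylation, are in capitals. Where a gene had several windows, the one farthest upstream was taken. The windows were Zfp979 at chr4:147642459-147642758, minus strand; Zfp229 at chr17:21733474-21733773, plus strand; Zfp799 at chr17:32830212-32830511, minus strand. Zfp677 lay at chr17:21383498-21383797, plus strand, Zfp53 at chr17:21488738-21489037, plus strand, Zfp317 at chr9:19621841-19622140, plus strand and Zfp938 at chr10:82241231-82241530, minus strand.
Zfp979: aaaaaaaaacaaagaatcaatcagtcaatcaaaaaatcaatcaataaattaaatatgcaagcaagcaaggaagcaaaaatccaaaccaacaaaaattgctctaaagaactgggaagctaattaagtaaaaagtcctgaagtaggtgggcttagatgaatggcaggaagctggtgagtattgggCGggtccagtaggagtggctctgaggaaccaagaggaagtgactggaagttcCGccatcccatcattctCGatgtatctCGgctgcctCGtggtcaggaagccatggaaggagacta
Zfp229: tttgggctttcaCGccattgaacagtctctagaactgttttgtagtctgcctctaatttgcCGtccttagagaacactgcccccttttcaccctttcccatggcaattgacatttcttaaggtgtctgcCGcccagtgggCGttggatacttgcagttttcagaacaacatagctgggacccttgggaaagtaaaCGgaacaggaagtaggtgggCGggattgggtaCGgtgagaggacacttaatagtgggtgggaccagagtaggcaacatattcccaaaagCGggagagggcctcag
Zfp799: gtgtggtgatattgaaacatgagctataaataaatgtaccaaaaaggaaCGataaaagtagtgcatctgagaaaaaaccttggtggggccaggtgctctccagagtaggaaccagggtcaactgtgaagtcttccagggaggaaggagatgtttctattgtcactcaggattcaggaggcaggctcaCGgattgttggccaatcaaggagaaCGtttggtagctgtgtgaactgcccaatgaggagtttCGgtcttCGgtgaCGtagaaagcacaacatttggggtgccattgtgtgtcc
Zfp677: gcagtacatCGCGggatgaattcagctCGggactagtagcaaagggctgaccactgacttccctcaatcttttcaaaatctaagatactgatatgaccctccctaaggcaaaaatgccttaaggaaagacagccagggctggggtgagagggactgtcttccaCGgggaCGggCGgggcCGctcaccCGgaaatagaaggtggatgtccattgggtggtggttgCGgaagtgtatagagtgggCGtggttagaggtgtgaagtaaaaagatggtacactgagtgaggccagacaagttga
Zfp53: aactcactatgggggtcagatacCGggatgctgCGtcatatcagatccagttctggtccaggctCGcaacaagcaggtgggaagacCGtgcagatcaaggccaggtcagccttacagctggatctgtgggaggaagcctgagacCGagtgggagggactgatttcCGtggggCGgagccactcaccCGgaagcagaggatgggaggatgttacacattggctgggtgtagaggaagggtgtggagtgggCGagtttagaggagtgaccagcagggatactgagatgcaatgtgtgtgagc
Zfp317: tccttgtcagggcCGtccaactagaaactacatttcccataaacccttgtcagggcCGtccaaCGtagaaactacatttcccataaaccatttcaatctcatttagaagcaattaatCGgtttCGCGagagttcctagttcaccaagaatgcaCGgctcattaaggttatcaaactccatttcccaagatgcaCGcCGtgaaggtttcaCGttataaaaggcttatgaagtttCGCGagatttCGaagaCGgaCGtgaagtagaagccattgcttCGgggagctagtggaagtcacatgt
Zfp938: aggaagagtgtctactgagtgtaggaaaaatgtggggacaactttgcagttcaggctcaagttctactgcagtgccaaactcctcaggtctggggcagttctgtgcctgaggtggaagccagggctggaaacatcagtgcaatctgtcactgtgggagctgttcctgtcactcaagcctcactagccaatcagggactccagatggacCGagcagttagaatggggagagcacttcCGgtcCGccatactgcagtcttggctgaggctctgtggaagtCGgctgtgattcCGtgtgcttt
The window of Zfp979 held 5 CpG, that of Zfp229 held 8, that of Zfp799 held 6, that of Zfp677 held 10, that of Zfp53 held 9, that of Zfp317 held 16 and that of Zfp938 held 5. Of 27025 genes with a window in the table, 61.7% had at least 5 CpG and 33.5% had at least 16.

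Hells read 5.22 in Lsh-/- MEF and 6.68 in Lsh+/+ MEF, from its only row. It is not given whether its probes fall within what was deleted, so the row may check nothing about the labels. Of 12 listed fibroblast markers 11 were kept, and 5 of these were at least 2-fold lower in Lsh-/-, namely Col1a2, S100a4, Lum, Pdgfra and Pdgfrb. Of all kept genes, 6.1% were at least 2-fold lower and 4.69% higher. Col1a2, a chain of type I collagen, read 7.06 in Lsh-/- and 11.5 in Lsh+/+, and only Col3a1 was above 0. Vim read 10.3 in Lsh-/- and 10.4 in Lsh+/+, while Thy1 was dimmer than the limit in both lines. The summed linear level of the 12 was 15808 in Lsh-/- and 22043 in Lsh+/+. Of 8 epithelial markers 4 were kept, and the summed linear level of all 8 was 1806 in Lsh-/- and 272 in Lsh+/+. Past 2-fold were the simple-epithelial keratin Krt18, at 8.92 in Lsh-/- and 2.77 in Lsh+/+, and Krt19, at 10.2 in Lsh-/- and 7.14 in Lsh+/+. The other kept ones lay within 2-fold. Krt8 read 6.23 in Lsh-/- and 5.98 in Lsh+/+, and Krt14 read 5.76 in Lsh-/- and 5.30 in Lsh+/+. Epcam and Cdh1, which define epithelium, lay below the limit on both arrays. The 3′ to 5′ gap of the control probe sets was wider in Lsh-/- for Actb (3.15, against 2.56 in Lsh+/+) and for Gapdh (2.84, against 2.14 in Lsh+/+). The 9 hybridisation control probe sets read higher on the Lsh-/- array by a median of 0.44, so directions are relative to the other genes of these arrays. The part of these values in the results below was not tested, and in whole cultures fewer cells of a type and less RNA per cell cannot be told apart.

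Zfp genes were more often higher than lower in Lsh-/- MEF. At a threshold of 2-fold, 15 of 166 were higher (9.04%) and 2 were lower (1.2%), and 149 lay between. Of all 9078 kept genes, with genes of identical value pairs counted once, 4.69% were higher by that threshold and 6.1% were lower. The median difference of the Zfp genes, Lsh-/- minus Lsh+/+ on the log2 scale, was 0.29 with quartiles of -0.05 and 0.64, beside 0.01 with quartiles of -0.33 and 0.35 for all kept genes. Differences lay above 0 for 119 Zfp genes (71.7%), against 50.6% of all kept genes. The limit does shape these counts, because 29 members passed through the Lsh-/- value alone and 6 through the Lsh+/+ value alone. The 131 members at or above it on both arrays had a median of 0.22, with 8 at least 2-fold higher (6.11%) and 0 lower. Of the 8116 genes at or above it on both arrays, 3.06% were higher and 4.05% lower, and their median was 0.02. Of the 131 members 90 lay above 0 (68.7%), against 50.9% of those genes. Over all 289 measured Zfp genes, with no limit, 19 were higher, 3 were lower and the median was 0.21, beside 0.03 for all measured genes, of which 3.11% were higher and 3.87% lower. Scaled to the hybridisation controls, the Zfp median became -0.14 and the median of all kept genes -0.43, with 5 of 161 Zfp genes higher and 12 lower, beside 1.87% higher and 15% lower of all kept genes.

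**Figure D1:**
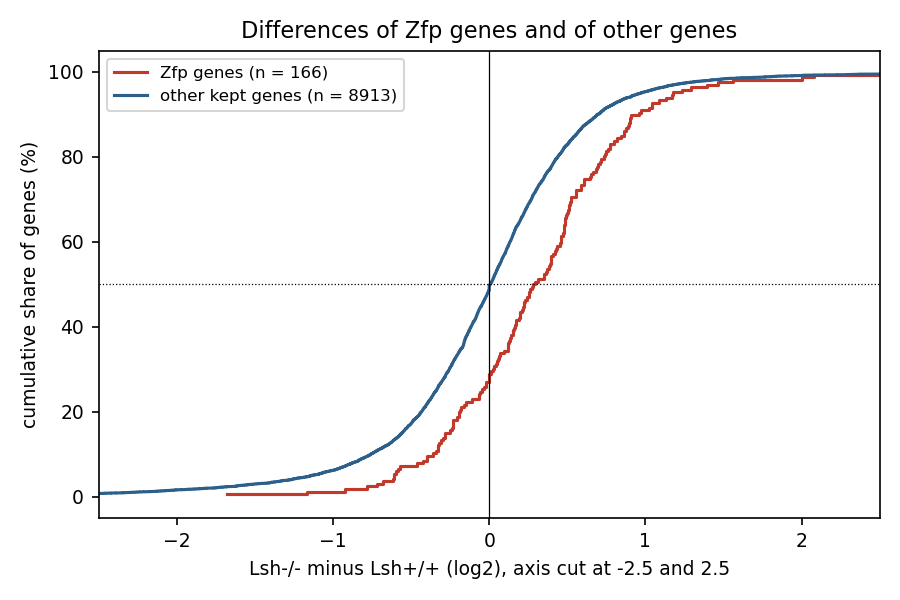
Cumulative share of genes (%) against the difference Lsh-/- minus Lsh+/+ (log2) for the 166 Zfp genes and the 8913 other kept genes. The Zfp curve lies to the right of the other genes through the middle of the range, crossing 50% at 0.29 against 0.01 for the others.

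The shift was also read in bands of brightness. The 52 Zfp genes with a mean of both arrays below 4.5 had a median of 0.46, beside 0.03 for 1721 other kept genes. Of these 52, 35 had passed through 1 array alone, so that their direction was set by the limit. Among the 17 of that band at or above the limit on both arrays the median difference was 0.12, beside 0.05 for the 849 other such genes. A mean below 4.5 with both values above the limit leaves little room for a difference. The dimmest band therefore cannot show whether the shift varied with brightness. In the band from 4.5 to 5.5 every kept Zfp gene was above the limit on both arrays, and the median was 0.27 (59 Zfp genes), beside 0.04 (2115 other genes). From 5.5 upward it was 0.22 (55 Zfp genes), beside -0.01 (5021 other genes).

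Zfp979 was the member farthest apart. It read 5.53 in Lsh-/- MEF and 1.68 in Lsh+/+ MEF, a measured difference of 3.86. Since the Lsh+/+ value lay below the dimness limit, the gene was at least 3.19-fold higher over that limit. It lies on chromosome 4, where the 7 kept Zfp genes had a median of 0.21 and the 571 other kept genes one of -0.14.

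The next 5 members were all on chromosome 17. Zfp229 read 5.10 in Lsh-/- and 3.02 in Lsh+/+ (at least 2.36-fold higher over the limit). Zfp799 read 6.38 in Lsh-/- and 4.38 in Lsh+/+, above the limit on both arrays, and was 4.0-fold higher. Zfp677 read 5.96 in Lsh-/- and 4.41 in Lsh+/+, 2.95-fold higher. For 2 more the Lsh+/+ value was near the limit or below it. Zfp946 read 4.81 in Lsh-/- and 3.35 in Lsh+/+ (at least 1.94-fold higher over the limit), and Zfp51 read 5.39 in Lsh-/- and 4.0 in Lsh+/+, 2.63-fold higher.

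Among the other higher members, Zfp160 and Zfp760 of chromosome 17 were 2.35-fold and 2.19-fold higher, at 5.63 and 6.5 in Lsh-/- against 4.39 and 5.37 in Lsh+/+. Zfp472, also on chromosome 17, read 4.71 in Lsh-/- and 3.55 in Lsh+/+. Away from that chromosome, Zfp317 read 4.63 in Lsh-/- and 3.34 in Lsh+/+, with the Lsh+/+ value below the limit. Zfp703, a transcriptional corepressor related to Zfp503, read 6.47 in Lsh-/- and 5.29 in Lsh+/+, 2.26-fold higher, and its second row differed by 1.02. Its relative Zfp503 differed by 0.12. Zfp513, whose human counterpart is linked to retinal degeneration, was 2.12-fold higher, at 5.76 in Lsh-/- and 4.68 in Lsh+/+. Zfp438, Zfp61 and Zfp90 lay just past the threshold, with differences of 1.04, 1.04 and 1.02. With a loess trend removed all 3 lay under 2-fold, at 0.98, 0.98 and 0.99, and with chromosome medians subtracted Zfp438 differed by 0.62 and Zfp90 by 0.93. Zfp61 was at least 1.30-fold higher over the limit. In 7 of the 15 higher genes the Lsh+/+ value lay below the limit, and for 11 of the 15 the fold over the limit, or the measured fold where both values were above it, was at least 2.

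The lower members were Zfp938 on chromosome 10 and Zfp13 on chromosome 17. Zfp938 read 3.42 in Lsh-/- and 5.10 in Lsh+/+, at least 2.32-fold lower over the limit. Zfp13 read 3.46 in Lsh-/- and 4.63 in Lsh+/+, at least 1.67-fold lower. Both Lsh-/- values lay below the limit.

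**Figure D2:**
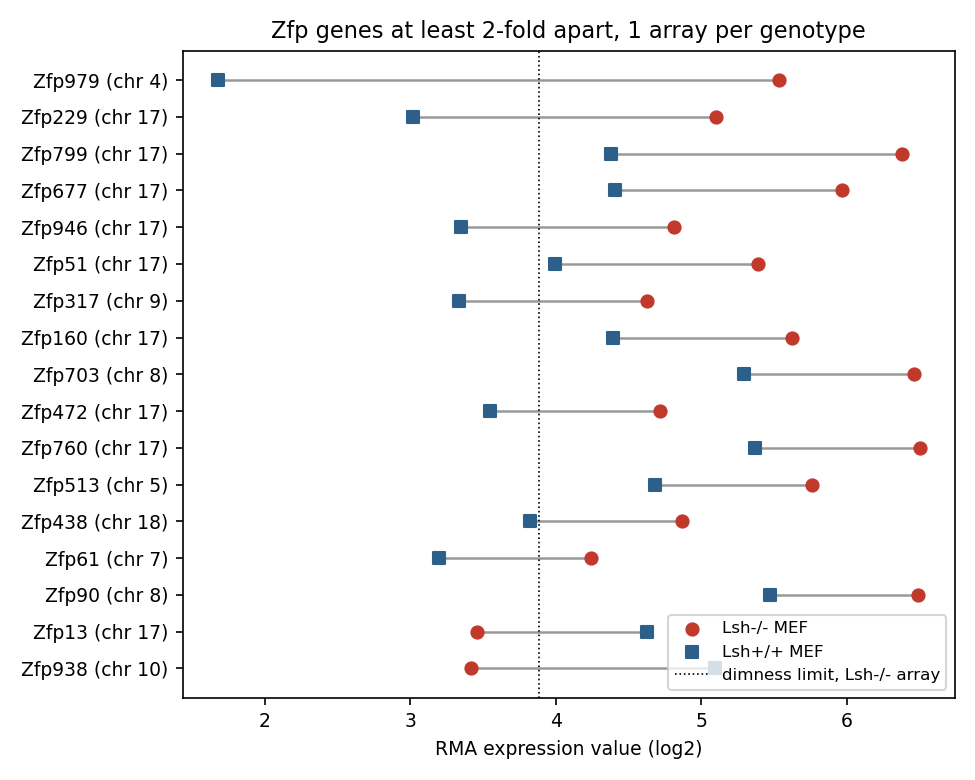
Log2 expression values of the 17 Zfp genes at least 2-fold apart, with a circle for Lsh-/- MEF, a square for Lsh+/+ MEF (1 array each) and the dimness limit of the Lsh-/- array (3.88) as a dotted line. Zfp979 has the widest gap (5.53 in Lsh-/- and 1.68 in Lsh+/+), and the 2 genes at the foot of the plot are the lower ones.

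Clusters were formed from the order of genes in the table, with Zfp genes joined where at most 10 other protein-coding genes lay between them. In this way 61 kept members fell into 10 clusters of at least 3 members each. The median difference was above 0 in 8 clusters and below 0 in 2. Members in the clusters had a median of 0.26 and members outside them one of 0.31, and 9 of the 15 higher genes were in a cluster.

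The cluster of chromosome 17 that runs from Zfp160 to Zfp13 had the highest median, 0.88 over 14 kept members, with 6 at least 2-fold higher, 1 lower and 12 above 0. In gene order it opens with Zfp160, Zfp677 and Zfp51, at 1.23, 1.56 and 1.40, followed by Zfp53 and Zfp948, at 0.22 and -0.06. The members then read 1.13 for Zfp760 and 2.08 for Zfp229. The stretch of Zfp820, Zfp942, Zfp943 and Zfp758 lay within 2-fold, at 0.51, 0.65, 0.80 and 0.77, and Zfp946 read 1.47. Zfp213 at 0.96 and Zfp13 at -1.17 closed the cluster, so that neighbours differed in both directions. A further 6 measured Zfp genes of this cluster lay below the limit on both arrays, and with them included the cluster median was 0.61. Over the 8 members above the limit on both arrays it was 0.96, and 5 members had passed through the Lsh-/- value alone. Scaled to the hybridisation controls it was 0.44, beside -0.43 for all kept genes, and with the pseudocount of 32 on the linear scale 0.30.

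The other cluster of chromosome 17, from Zfp871 to Zfp414, had a median of 0.46 over 7 kept members. Zfp799 and Zfp472, at 2.00 and 1.17, lie side by side among these members, followed by Zfp952 at 0.16, Zfp763 at 0.75 and Zfp101 at 0.46. Zfp871 at one end and Zfp414 at the other differed by -0.19 each. Zfp955b, a zinc finger gene whose symbol ends in a letter and which is therefore no member, lies in the same stretch and read 5.94 in Lsh-/- and 4.62 in Lsh+/+. The 3 other kept genes of the stretch, Zfp955b with Cyp4f13 and Adamts10, had a median of -0.39. No gene other than Zfp genes was kept within the first chromosome 17 cluster. Scaled to the hybridisation controls, the second cluster's median became 0.03, beside -0.43 for all kept genes, and when only values past the upper quartile passed it was 0.14. Over the 6 members above the limit on both arrays it was 0.31.

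**Figure D3:**
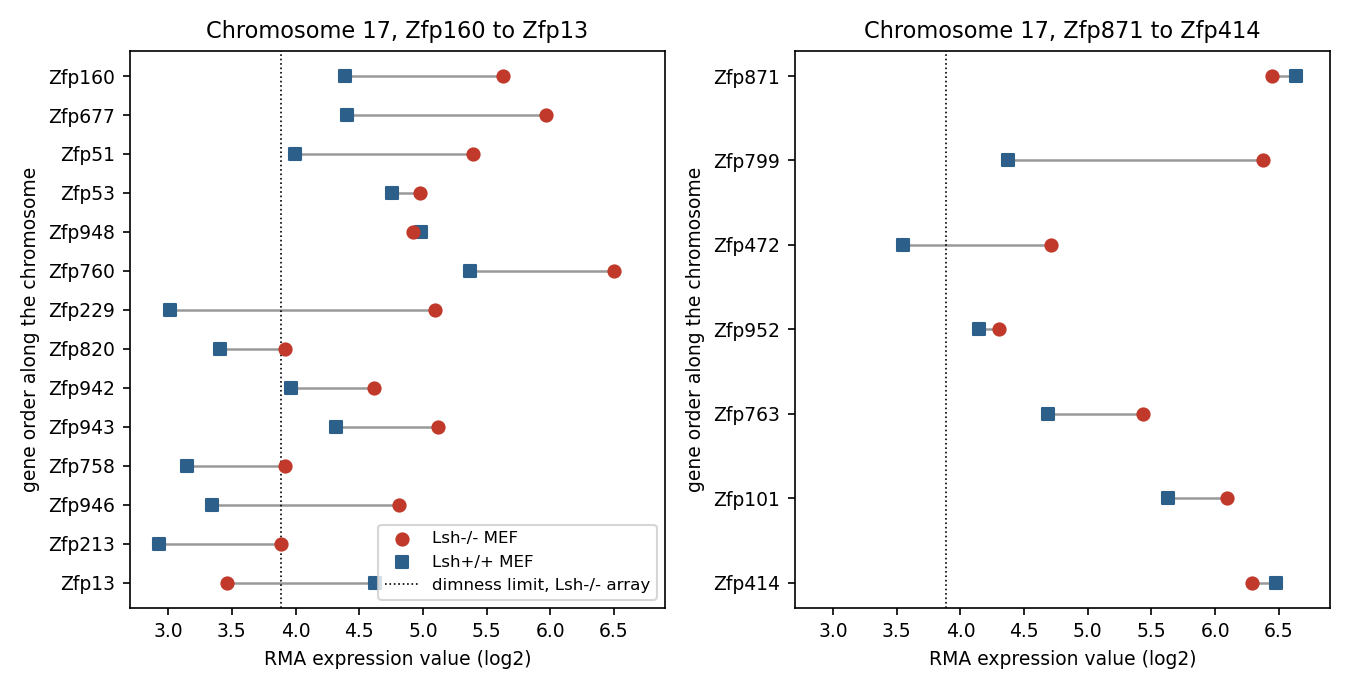
Log2 values in Lsh-/- MEF (circles) and Lsh+/+ MEF (squares) of the kept Zfp genes of both chromosome 17 clusters, in gene order from top to bottom; the dotted line is the dimness limit of the Lsh-/- array. In the left panel 12 of 14 genes lie further right in Lsh-/-, and Zfp13 lies 1.17 log2 units further left.

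The 2 clusters of chromosome 17 together held 8 of the 15 higher Zfp genes among 21 members, with a median of 0.77. The 443 other kept genes of chromosome 17 had a median of -0.08, with 13 at least 2-fold higher and 32 lower. The 5 kept Zfp genes elsewhere on the chromosome had a median of 0.01 and none past 2-fold. Without the 2 clusters 145 Zfp genes remained, with a median of 0.25, 7 higher (4.83%) and 1 lower, so that the share of higher genes was then close to the 4.69% of all kept genes while the median was not. Leaving them out was chosen after the values were seen.

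In the chromosome 13 cluster from Zfp595 to Zfp748 the 4 kept members differed by 0.22 to 0.85, 2 of them kept by the Lsh-/- value alone, with Zfp87 at 0.55 and Zfp953 highest. The 3 other kept genes of that stretch, among them Zfp874b at 1.08, had a median of 0.42, beside 0.51 for the Zfp members. The 6 kept members of the chromosome 7 cluster from Zfp30 to Zfp260 had a median of 0.44, but 4 of them passed through the Lsh-/- value alone and could only be above 0. With no limit the median of this cluster was 0.13, and over the 2 members above the limit on both arrays it was 0.08. The kept members ranged from 0.03 for Zfp260 to 0.97 for Zfp566, and included Zfp568, a KRAB protein that represses a placental promoter of Igf2 in the embryo, at 0.20. On chromosome 6 the 6 kept members from Zfp212 to Zfp775 were above 0, with a median of 0.38 and the highest difference at Zfp467 (0.91). The 5 other kept genes of that stretch had a higher median, 0.54, and the Zfp median was 0.21 with no limit and 0.098 with the chromosome median subtracted. The 3 kept genes of the chromosome 8 cluster, Zfp930, Zfp869 and Zfp866, differed by 0.37, 0.28 and 0.59. Each kept Zfp member of these clusters was within 2-fold.

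The clusters with a median below 0 lie on chromosomes 6 and 7. From Zfp422 to Zfp9 on chromosome 6 the 4 kept members differed by -0.72 (Zfp422), -0.32 (Zfp637), -0.23 (Zfp239) and -0.31 (Zfp9), and the 4 other kept genes of that stretch had a median of -0.72. From Zfp628 to Zfp580 on chromosome 7 the 4 kept members differed by -0.78 (Zfp579), -0.34 (Zfp580), -0.28 (Zfp524) and -0.15 (Zfp628), while the 3 other kept genes there had a median of 0.44. Zfp524 shared both values with Rgs14, a regulator of G-protein signalling, and was the only kept member to share a value pair with another gene. The remaining chromosome 7 clusters were mixed. In the one from Zfp180 to Zfp575 the members ranged from -0.61 for Zfp93 to 1.04 for Zfp61, and in the one from Zfp771 to Zfp646 from -0.25 for Zfp688 to 0.48 for Zfp629. Zfp93 had passed through the Lsh+/+ value alone, and Zfp61 and Zfp629 through the Lsh-/- value alone, so the limit set their direction. Over the 4 members above the limit on both arrays the first cluster ranged from -0.33 to 0.82. The second ranged from -0.25 to 0.23 over its 4 such members.

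By chromosome, 13 chromosomes held at least 5 kept Zfp genes, and on 11 of them the Zfp median was above that of the other kept genes. The gap was widest on chromosome 17 (0.58 for 26 Zfp genes, against -0.08), followed by chromosome 9 (0.50 for 8, against -0.12) and chromosome 5 (0.47 for 10, against -0.04). Chromosome 18 had all 7 Zfp genes above 0 with a median of 0.52, but its 213 other kept genes had a median of 0.45. The Zfp median was below that of the other genes on chromosome 2 (-0.30 for 9, against -0.12) and on chromosome 6 (0.16 for 12, against 0.29). All 3 kept Zfp genes of chromosome X lay below 0, from -0.92 for Zfp449 to -0.18 for Zfp185. Zfp185 had passed through the Lsh+/+ value alone and could only lie below 0. The Zfp medians by chromosome also include the 29 of 166 members that passed through the Lsh-/- value alone and could only lie above 0. Medians by chromosome over members above the limit on both arrays were not computed. With the median of each chromosome subtracted, the Zfp median was 0.24, and 16 Zfp genes were higher and 3 lower, beside 4.1% higher and 6.08% lower of all kept genes.

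**Figure D4:**
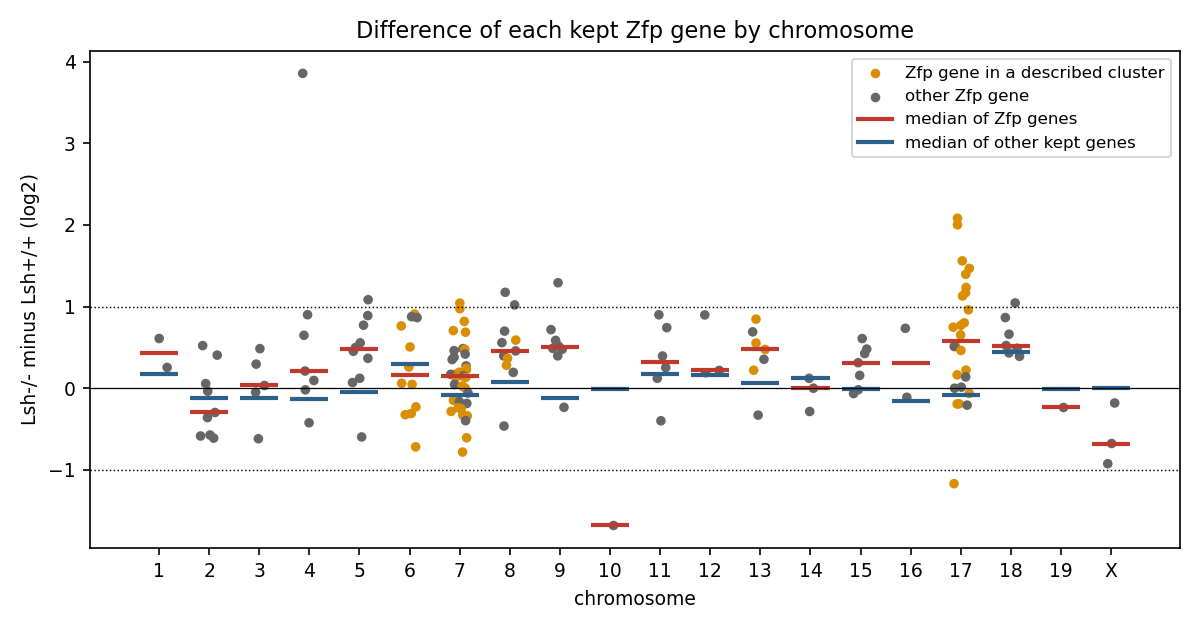
Difference Lsh-/- minus Lsh+/+ (log2) of each of the 166 kept Zfp genes by chromosome, with the median of the Zfp genes and of the other kept genes as bars and 2-fold as dotted lines. Chromosome 17 holds 8 of the 15 genes above the upper line, all of them in described clusters.

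Zfp809, Zfp57, Zfp445 and Zfp638, which act in silencing of repeats or at imprinted regions, were each within 2-fold. Zfp809, which recognises the primer binding site of murine leukaemia virus and silences it, read 7.14 in Lsh-/- and 6.66 in Lsh+/+. Zfp57, which holds methylation at imprinting control regions, read 4.85 on both arrays, and it was 1 of 2 kept members with exactly equal values. Of all 23950 rows, bright and dim, 1105 had the same value on both arrays. Zfp445, which also acts at imprinted regions, read 6.98 in Lsh-/- and 6.47 in Lsh+/+. Zfp638, whose human counterpart silences unintegrated retroviral DNA, read 6.98 in Lsh-/- and 6.11 in Lsh+/+, and its second row differed by 0.61.

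Of the listed regulators of cell identity, Zfp703 was past 2-fold, as given above. Zfp281, a factor of pluripotent cells, differed by 0.61, Zfp462, which restrains other lineages in embryonic stem cells, by 0.90, and Zfp516, an activator of brown fat genes, by 0.52. Zfp467, which favours fat over bone formation in marrow stroma, differed by 0.91. Zfp423, a regulator of preadipocytes, lay below the limit on both arrays, at 1.70 in Lsh-/- and 3.68 in Lsh+/+, so that no fold is given. Zfp42, the pluripotency marker Rex1, was dim as well, at 1.66 in Lsh-/- and 1.99 in Lsh+/+.

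The other listed members with known roles differed in both directions. Zfp36, the mRNA decay factor tristetraprolin, differed by -0.40, the RNA-binding protein Zfp106 by -0.59, and Zfp335, a nuclear factor needed by neural progenitors, by -0.61. Zfp217, a partner of corepressor complexes, differed by -0.30, and Zfp91, a ubiquitin ligase, by -0.23. Zfp598, the ubiquitin ligase that senses collided ribosomes, read 7.16 in Lsh-/- and 7.37 in Lsh+/+. On the other side, Zfp207, a spindle protein that loads Bub3, differed by 0.39, Zfp326 of a splicing complex at RNA polymerase II by 0.56, and the SUMO ligase Zfp451 by 0.25. Zfp143 and Zfp148, activators that bind many promoters, differed by -0.16 and -0.11. Zfp110 differed by 0.42, Zfp608 by 0.39, Zfp318 by 0.14, Zfp292 by 0.10 and Zfp64 by -0.04. Zfp706, Zfp512 and Zfp46, which lay well above the limit on both arrays, differed by 0.16, 0.07 and -0.02.

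The limit cut close to a few genes. Just inside it were Zfp213 (3.89 in Lsh-/- and 2.93 in Lsh+/+), Zfp689 (3.89 in both) and Zfp185 (3.70 in Lsh-/- and 3.88 in Lsh+/+). Just outside were Zfp668 (3.87 in Lsh-/- and 3.40 in Lsh+/+), Zfp82 (3.87 in Lsh-/- and 3.72 in Lsh+/+) and Zfp58 (3.85 in Lsh-/- and 2.73 in Lsh+/+). The 123 Zfp genes below it on both arrays had a median of 0.14. By their measured values 4 were past 2-fold upward (3.25%) and 1 downward (0.813%). Of all 15468 measured genes, bright and dim together, 481 were higher (3.11%) and 599 lower (3.87%). The 9078 kept genes held 426 of those higher and 554 of those lower. The share among all genes below the limit was therefore under 3.11% higher and under 3.87% lower. Of 37 kept members with more than 1 row, 31 had identical rows and 6 had rows of other values. Among those 6, Zfp655 and Zfp444 had a second row on the other side of 0, at -0.23 and -0.27, against 0.37 and 0.17 in the rows used.

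Promoter windows were available for 135 of the 166 members (81.3%). Their median ratio of observed to expected CpG was 0.69, and 63.7% had a ratio of at least 0.6, against 0.79 and 76.6% for all kept genes with a window. The 11 higher members with a window had a median ratio of 0.54, the 2 lower members had one of 0.39, and the 122 members between had one of 0.71. The lower ratio was seen among the higher members of the chromosome 17 clusters. In those clusters the 7 higher members with a window had a median of 0.53 (0.39 to 0.66), and the 12 members between had one of 0.65 (0.41 to 0.91). Zfp53, with a ratio of 0.41, was among the members between, beside Zfp229 (0.43) and Zfp677 (0.53) among the higher ones. Outside the clusters only 4 of the 7 higher members had a window. Their median was 0.90, with Zfp979 at 0.38 and Zfp317 at 1.07 among them. Zfp979, Zfp317 and Zfp61 of these had passed through the Lsh-/- value alone, as had Zfp229, Zfp946 and Zfp472 inside the clusters. At a threshold of 1.5-fold the median of the higher members was 0.72. Over all kept genes the higher group had a median ratio of 0.71, the lower group 0.62 and the genes between 0.80. DNA methylation itself was not measured on these arrays.

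**Figure D5:**
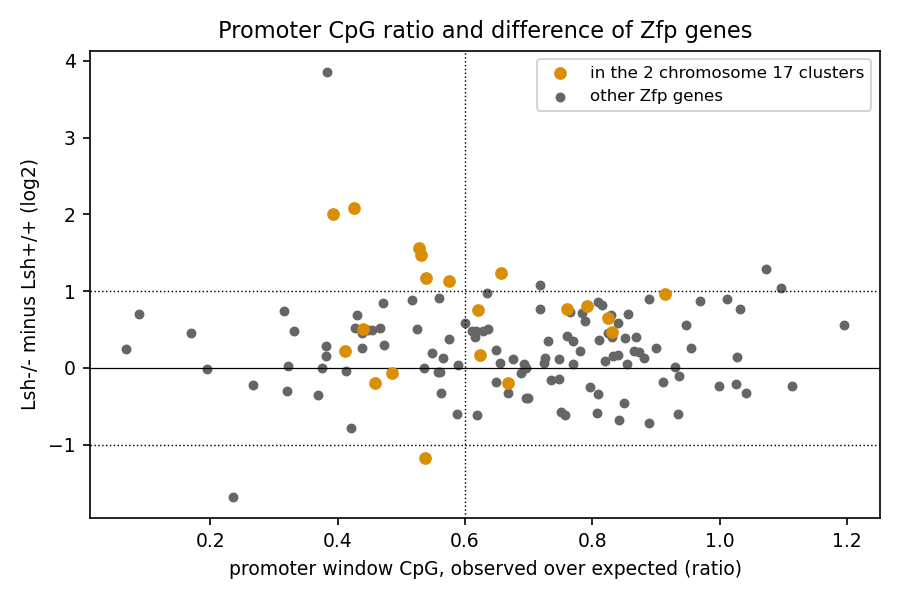
Difference Lsh-/- minus Lsh+/+ (log2) against the ratio of observed to expected CpG in the promoter window for 135 Zfp genes, with members of the 2 chromosome 17 clusters in orange and a ratio of 0.6 as a dotted line. In the clusters, 6 of the 7 higher genes with a window lie left of 0.6, while 3 of the 4 higher genes outside them lie right of it.

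The kept factors through which KRAB zinc finger proteins act were within 2-fold, as were 8098 of all 9078 kept genes. Of 27 listed corepressors and chromatin partners 24 were measured and 22 kept. Of these 22, 16 lay above 0, beside 50.6% of all kept genes. Their median difference was 0.35, beside 0.29 for the Zfp genes and 0.01 for all kept genes. Trim28 read 9.26 in Lsh-/- and 9.15 in Lsh+/+, and Setdb1 read 4.06 in Lsh-/- and 3.93 in Lsh+/+. Atf7ip, the partner that stabilises Setdb1, was farthest from 0, at 5.0 in Lsh-/- and 5.88 in Lsh+/+. Uhrf1, which brings Dnmt1 to newly copied DNA, read 5.42 in Lsh-/- and 4.64 in Lsh+/+, and Dnmt1 read 7.55 in Lsh-/- and 7.04 in Lsh+/+.

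Other zinc finger families gave a background by symbol. Among all kept genes 50.6% lay above 0, 4.69% were at least 2-fold higher and 6.1% lower. The 8 kept Zscan and Zkscan genes, whose SCAN domain pairs zinc finger proteins with each other, had a median of 0.37 and 7 above 0, with none past 2-fold and Zscan26 farthest from 0 at 0.72. The 33 kept Zbtb genes had a median of 0.16 with none past 2-fold, Zbtb22 being farthest from 0 at 0.88. The 12 kept Klf genes had a median of 0.14, and Klf5, a factor of epithelial and smooth muscle cells, was 2.68-fold higher, at 6.05 in Lsh-/- and 4.63 in Lsh+/+. Among 10 kept genes with letters after the digits, the median was 0.07, with Zfp955b, Zfp512b and Zfp874b higher and the mRNA decay factor Zfp36l1 2.16-fold lower (6.53 in Lsh-/- and 7.65 in Lsh+/+). Differences between these families and the Zfp genes were not tested, since no replicate gives their error.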

How the data were processed

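Total RNA of 1 Lsh-/- and 1 Lsh+/+ MEF line was measured on 1 array each. The authors deposited 1 table of log2 values made with RMA, per the submitters' processing notes; they spanned 0.89 to 13.1, as log2 intensities do. Of 23950 rows, 64 were control probe sets, 21230 matched 1 gene of the RefSeq table (GRCm38.p6) by unversioned accession and 2656 matched none. No source used here names the build behind the rows. For each of 16579 genes the brightest row by mean was used. Arrays give no counting depth; their number limits the precision. Where the dimmer value lay below the dimness limit, the fold is the brighter value over the limit of the dimmer array. Gene choice and counting were tested on simulated data with large planted differences. The dimness limit was switched off there, so its effect was not tested. Calculations used Python 3.11.15, numpy 2.4.6, pandas 2.3.3 and statsmodels 0.14.6.

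The members, lists and tests were chosen with earlier results of these data known. Named were the 12 genes farthest from 0 in each direction past 2-fold, listed genes of known role, members of described clusters, genes beside the limit, members with shared values, the 6 brightest, the outermost members of each other list, and Hells. Chosen after their values were seen were Zfp438, Zfp61, Zfp90, Zfp445, Zfp638, Zfp655, Zfp444, Zfp449, Trim28, Setdb1, Uhrf1, Dnmt1, Pdgfra, Pdgfrb, Col3a1, Vim, Thy1, Epcam, Cdh1, Krt8 and Krt14. Zfp423 and Zfp42, listed but below the limit, were also named after their values were seen. Marker lists of endothelial, blood, skeletal muscle and neural cells had 2, 1, 3 and 2 members kept, with medians of 0.04, -0.44, -0.45 and -0.36. The 2 endothelial ones lay far apart, with Kdr at 1.82 and Egfl7 at -1.73. Outermost in the other lists were Itgb2 of blood at -0.44, Tnnc1 of muscle at -2.46 and Ncam1 of neural cells at -0.76. The fibroblast and epithelial medians were -0.73 and 1.75. Protein sequences were not used here, so KRAB boxes were not called and identity between members was not computed. Whether near-identical neighbours in a cluster share probe signal was not tested. Alternatives were the mean over rows, other limits, quantile normalization, loess (span 0.3), scaling to hybridisation controls, a pseudocount of 32, subtraction of chromosome medians, other thresholds and other cluster gaps.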

Additional observations from a re-analysis of the deposited data

How the results depend on the processing

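No paired analysis was possible because only 1 array was made per genotype, which also leaves no replicate to drop. The KRAB alternatives were not run, since no protein sequences were used. The counts of 15 higher and 2 lower Zfp genes stayed within 1.5 times under the mean over rows, no limit (19 and 3), quantile normalization, loess, chromosome medians subtracted (16 and 3) and every gene counted. An upper-quartile limit left 5 higher and 0 lower of 56 Zfp genes (all genes, 4.59% and 6.39%), and a limit on both arrays, chosen after seeing the data, left 8 and 0 of 131 (3.06% and 4.05%). Scaling to the hybridisation controls gave 5 higher and 12 lower of 161 (1.87% and 15%), and the pseudocount 2 and 0 of 166 (1.11% and 2.12%). A threshold of 1.5-fold gave 46 higher and 11 lower (13.8% and 13.9%), and one of 3-fold 3 and 1 (1.44% and 2.63%). Leaving out the chromosome 17 clusters, chosen after seeing the data, left 7 higher and 1 lower of 145. A stricter limit or threshold lowers counts by its construction. The Zfp median of 0.29 was 0.15 with the pseudocount (0.01 for all kept genes) and -0.14 with scaling to the hybridisation controls (-0.43 for all kept genes). It lay between 0.21 and 0.29 under the other alternatives. The higher members' median promoter CpG ratio, 0.54, was 0.43 with that scaling, 0.39 with the pseudocount and at 3-fold, 0.72 at 1.5-fold and 0.90 without the chromosome 17 clusters. The cause of these moves was not tested, apart from the construction named. Cluster medians that moved by more than 0.1 were, with no limit, 0.61 for Zfp160 to Zfp13, 0.34 for Zfp871 to Zfp414, 0.37 for Zfp595 to Zfp748, 0.21 for Zfp212 to Zfp775, 0.13 for Zfp30 to Zfp260 and 0.59 for Zfp930 to Zfp866. With the limit on both arrays they were 0.31 for Zfp871 to Zfp414, 0.39 for Zfp595 to Zfp748, 0.26 for Zfp212 to Zfp775 and 0.078 for Zfp30 to Zfp260. Under an upper-quartile limit they were 1.34 for Zfp160 to Zfp13, 0.14 for Zfp871 to Zfp414, 0.16 for Zfp212 to Zfp775, -0.78 for Zfp628 to Zfp580 and 0.027 for Zfp30 to Zfp260. With scaling to the hybridisation controls, which shifts every gene alike, they were 0.44 for Zfp160 to Zfp13, 0.025 for Zfp871 to Zfp414, 0.077 for Zfp595 to Zfp748, -0.055 for Zfp212 to Zfp775, -0.75 for Zfp422 to Zfp9, -0.75 for Zfp628 to Zfp580, -0.28 for Zfp180 to Zfp575, 0.25 for Zfp30 to Zfp260, -0.31 for Zfp771 to Zfp646 and -0.070 for Zfp930 to Zfp866. With the pseudocount they were 0.30 for Zfp160 to Zfp13, 0.30 for Zfp871 to Zfp414, 0.23 for Zfp595 to Zfp748, 0.17 for Zfp212 to Zfp775, -0.12 for Zfp628 to Zfp580, 0.13 for Zfp30 to Zfp260 and 0.19 for Zfp930 to Zfp866. With chromosome medians subtracted they were 0.098 for Zfp212 to Zfp775 and -0.60 for Zfp422 to Zfp9, with a cluster gap of 3 genes 0.75 for Zfp871 to Zfp414 and 0.51 for Zfp212 to Zfp775, and with a gap of 25 genes -0.15 for Zfp628 to Zfp580. Signal over background was not known, so the dimmest differences are the least certain.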
